A study of Mus musculus with 26 samples.

Results

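The cytosolic ribosomal protein genes are described here in 2 lines of S49 cells, a mouse T lymphoma line, over 24 h of treatment with a cAMP analogue. Members were taken by name alone: array probe sets with a single gene symbol made of Rpl or Rps and a number, together with Rplp0, Rplp1, Rplp2, Rpsa and Fau, leaving out the ribosomal S6 kinases and pseudogenes. This gave 49 genes on 101 probe sets, out of 12393 genes with a symbol of their own on the array. Of these, 22 encode proteins of the 60S (large) subunit and 21 of the 40S (small) subunit, and 6 are paralogs or related genes (Rpl7l1, Rpl22l1, Rps27l, Rpl39l, Rpl3l and Rps4l). Rplp1, Rpl3, Rpl5, Rpl10 and Rps27a had no probe set with a single symbol and were not analysed here.

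The ribosome is built from ribosomal RNA and a fixed set of proteins, most present once per particle, so cells keep the messages for these proteins in near balance. Most of these messages begin with a short run of pyrimidines, the 5′ terminal oligopyrimidine (TOP) motif, through which mTOR and LARP1 set how actively they are translated. Subunit assembly needs many further proteins that leave the particle before it is finished, and the genes for these are classic targets of MYC.

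WT S49 cells die when cAMP rises, and the "deathless" variant, D-, was isolated as a line that survives it. Both lines were grown in suspension and treated with 8-CPT-cAMP, an analogue that enters cells and activates protein kinase A, at a concentration the labels give as 100 mM, a unit that was not checked. The 26 Affymetrix arrays made 8 groups: untreated WT and untreated D- cells (4 arrays each), and WT and D- cells treated for 2, 6 and 24 h (3 arrays each). Titles of the treated WT arrays carry the word untreated beside a time; their other label fields call them treated and were followed. Each line is a single cell line, and the labels call the replicates biological without naming separate cultures, so the p-values cover only how far these arrays spread, part of which may be technical. The number of arrays limits the precision.

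Within groups, arrays correlated at 0.990 to 0.998 over all probe sets other than the controls, those below the filter included. All 6 T cell markers had a mean log2 intensity above 5 (5.58 to 12.39), against 1 of 3 B cell, 1 of 4 myeloid, 0 of 2 erythroid and 0 of 4 stromal markers. The mean of the T cell markers per array was 9.77 to 10.02 in untreated WT cells and 10.03 to 10.36 at 24 h, and 9.53 to 9.93 and 10.13 to 10.35 in D- cells. That of the myeloid markers was 4.16 to 4.26 and 4.42 to 4.96 in WT cells and 4.13 to 4.52 and 4.30 to 4.84 in D- cells. Among them Itgam, which encodes an integrin of myeloid cells, rose at 24 h by 2.19 in WT and 1.42 in D- cells (limma adjusted p = 6.22e-05 and 0.00703). The part of these shifts in the 24 h results was not tested. The arrays fell into 2 sets along the first axis of their deviations from the group means: one of 10 arrays (replicate 1 of each treated group and replicates 1 and 2 of each untreated group) and one of 16 arrays (the others). Both sets hold every group, and the labels do not name them. Values within each set stand beside the main changes of most members described in full. In the set of 10 such a change is 1 treated array minus the mean of 2 untreated ones. In the set of 16 it compares 2 treated arrays with 2 untreated ones.

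Many member genes carry the pyrimidine run at their annotated start. RefSeq promoter sequences (build GRCm38.p6) were found for 43 of the 49 members. A run of at least 7 pyrimidines touching the 5 bases on either side of the start was present in 22 of them (51.2%), against 15.7% of 27025 genes. The windows below run from 10 bases before to 20 bases after the annotated start, 5′ to 3′ on the gene's strand, with the run in capitals. They show the pattern in members that the array results turn on. In Rplp0, Rps25 and Rpl7l1 no such run touches the 5 bases on either side of the start. The Rplp0 window does hold 7 pyrimidines (ttctcct) further downstream, which are not in capitals.
Fau: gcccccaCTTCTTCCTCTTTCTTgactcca
Rps9: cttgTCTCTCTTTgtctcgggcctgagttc
Rps6: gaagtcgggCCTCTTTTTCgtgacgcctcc
Rps18: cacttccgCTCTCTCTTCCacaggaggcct
Rpl14: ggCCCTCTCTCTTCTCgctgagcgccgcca
Rpl12: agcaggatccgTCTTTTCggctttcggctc
Rpl22l1: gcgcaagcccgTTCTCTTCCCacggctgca
Rplp0: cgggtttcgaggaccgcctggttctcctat
Rps25: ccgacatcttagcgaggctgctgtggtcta
Rpl7l1: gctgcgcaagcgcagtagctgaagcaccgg
These windows lie at chr19:6057937-6057966 (Fau, plus strand), chr7:3704031-3704060 (Rps9, plus), chr4:86857348-86857377 (Rps6, minus), chr17:33955646-33955675 (Rps18, minus), chr9:120571507-120571536 (Rpl14, plus), chr2:32961702-32961731 (Rpl12, plus), chr3:28805498-28805527 (Rpl22l1, plus), chr5:115559457-115559486 (Rplp0, plus), chr9:44407704-44407733 (Rps25, plus) and chr17:46782637-46782666 (Rpl7l1, minus). An annotated start can be off by some bases, and a window without capitals says only that no such run touches the bases beside that start. In the 300 bases around the start (250 before to 50 after), searched on both strands, CCGGAAG, the core of an ETS factor site, was present in 21 of 43 members (48.8%) and in 9.93% of all genes. TGACG, the half-site of the cAMP response element, was present in 21 of 43 (48.8%), against 23% of all genes, and the full element TGACGTCA, which contains it, in 3 (6.98% against 2.03%). CACGTG, the E-box that MYC can bind, was present in 4 (9.3% against 8.09%). These matches describe the sequences and say nothing of whether a factor was bound.

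Ribosomal protein signals were close to level through the treatment in both lines. Of the 49 genes, 46 passed the filter on low values (a log2 intensity of at least 5 on at least 3 arrays), and each is represented by its brightest tested probe set. The 3 others were near the lower end of the scale on every array: Rpl39l (log2 2.63 to 3.07), Rpl3l (2.98 to 5.00) and Rps4l (1.88 to 2.05), which are related to Rpl39, Rpl3 and Rps4x. In most members the signal was among the brightest on the array: 36 genes had a mean log2 intensity of 13 or more over the 26 arrays.

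Rplp0, which anchors the stalk on the 60S subunit where elongation factors bind, is an example of a bright member with small changes. Its log2 intensity was 15.21, 15.28, 15.20 and 15.16 in untreated WT cells and 15.31, 15.33 and 15.23 after 24 h. The D- arrays gave 15.18, 15.13, 15.17 and 15.05 untreated and 15.33, 15.24 and 15.19 after 24 h. The WT arrays overlapped and the D- arrays did not. Neither difference passed the test (0.08 in WT, limma adjusted p = 0.343, and 0.12 in D-, adjusted p = 0.167). The D- difference passed with the trend and robust settings of eBayes (adjusted p = 0.0394), and the D- arrays at 2 h also lay above all untreated ones. Rps18, a protein of the head of the 40S subunit, read 15.48, 15.64, 15.41 and 15.43 in untreated WT cells and 15.50, 15.51 and 15.54 after 24 h. The stalk protein gene Rplp2 had a 24 h difference of -0.06 in WT cells (95% interval -0.21 to 0.09) and -0.08 in D- cells (-0.23 to 0.06). Rpsa, the 40S protein also known as a laminin receptor, had 0.07 (-0.15 to 0.29) and 0.05 (-0.16 to 0.27). Rps19, the gene most often mutated in Diamond-Blackfan anaemia, had 0.03 (-0.23 to 0.30) and -0.16 (-0.42 to 0.10), and Rpl11, whose free protein binds MDM2, had 0.10 (-0.05 to 0.24) and -0.04 (-0.19 to 0.10).

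Counted over the members, 3 of 46 genes passed limma's test at an adjusted p under 0.05 in WT cells at 2 h (1 higher, 2 lower), where 25.1% of all 7435 genes tested passed (11.2% higher, 13.9% lower). At 6 h the count was 6 (1 higher, 5 lower), against 38.2% of all genes (19.1% higher, 19.1% lower), and at 24 h it was 10 (6 higher, 4 lower), against 53.8% (26.4% higher, 27.5% lower). In D- cells 2 members passed at 2 h (1 higher, 1 lower), against 22.3% of all genes (9.05% higher, 13.2% lower). At 6 h 5 passed, all lower, against 31.8% (16.2% higher, 15.6% lower), and at 24 h 6 passed (2 higher, 4 lower), against 34.7% (17.1% higher, 17.6% lower). The median log2 change of the members was 0.02, 0.01 and 0.09 at 2, 6 and 24 h in WT cells and 0.04, -0.05 and -0.01 in D- cells; the WT values turned negative at 2 and 6 h with quantile normalisation (-0.02 and -0.01) and at 6 h with median centring (-0.04). Quantile normalisation also gave 0.01 in WT cells at 24 h and 0.006 in D- cells at 2 h, and median centring gave 0.10 and -0.09 in D- cells at 2 and 6 h. Over all genes tested the medians ran from -0.02 to 0.00. The 6 responses are not separate experiments, since the 3 of each line share its untreated arrays.

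The level signal is itself a measurement with a bound. The 95% interval of the log2 change lay wholly within 0.5 on either side of 0, that is within 1.41-fold, for 40, 38 and 36 of the 46 members at 2, 6 and 24 h in WT cells and for 39, 39 and 36 in D- cells. Counts of other bright genes stand beside these for the brightness they share. Among 152 other genes with a mean log2 intensity of 13 or more, 7, 46 and 88 passed in WT cells and 8, 28 and 51 in D- cells, with changes from -2.18 to 1.23 in WT cells at 24 h. Among the 36 members in that range, 0, 0 and 5 passed in WT cells and 0, 0 and 1 in D- cells, and their changes at 24 h in WT cells ran from -0.16 to 0.38. At 14 or more, a limit added after the values had been seen, 4, 10 and 24 of 41 other genes passed in WT cells and 3, 7 and 16 in D- cells, against 0, 0 and 2 and 0 at each time among 31 members. At 15 or more there were 15 members and only 1 other gene, so the brightest members have almost no counterpart. Whether the arrays compress changes in such bright signals was not tested.

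**Figure D1:**
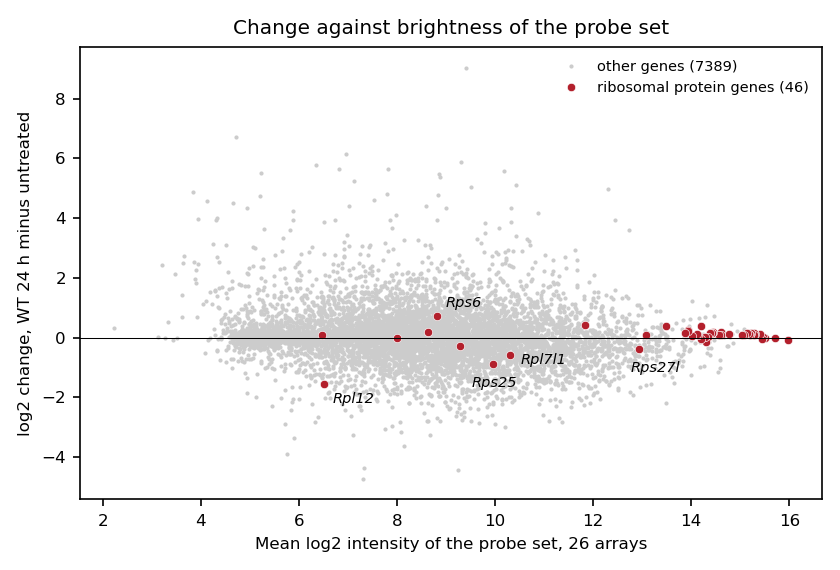
Log2 change in WT cells at 24 h (vertical axis) against the mean log2 intensity over 26 arrays (horizontal axis), 1 point per gene tested, with 46 ribosomal protein genes in red and 7389 others in grey. Most red points lie at the bright end close to 0, and Rpl12, Rps25 and Rpl7l1 lie below and Rps6 above.

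Genes for subunit assembly and export moved further than the members did when read by their brightest probe sets. Brightness was not matched between these lists. Probe sets of 9 member genes with a mean log2 intensity under 10, described further on, also fell. Their medians at 2, 6 and 24 h were -0.41, -0.77 and -0.41 in WT cells and -0.64, -0.88 and -0.64 in D- cells. Of 27 tested genes for subunit assembly and export, 10, 25 and 26 fell at 2, 6 and 24 h in WT cells and 5, 25 and 26 fell in D- cells, where 13.9%, 19.1% and 27.5% of all genes were called lower in WT and 13.2%, 15.6% and 17.6% in D- cells. Their median log2 change was -0.40, -1.03 and -1.14 in WT cells and -0.21, -0.82 and -0.83 in D- cells. The lowest at 24 h in WT cells were Grwd1, a chaperone of Rpl3, at -2.21 ± 0.35 (SE, adjusted p = 1.39e-05) and the nucleolar GTPase gene Gnl3 at -2.05 ± 0.32 (adjusted p = 1.17e-05). Per array, the median shift from untreated cells at 24 h was -1.13 ± 0.29 (SD, n = 3) in WT and -0.83 ± 0.28 (SD, n = 3) in D- cells for the assembly genes. For the members it was 0.07 ± 0.03 (SD, n = 3) and -0.003 ± 0.04 (SD, n = 3). The 24 h shift of the assembly genes was smaller on the array of the set of 10 in each line. In WT cells it was -0.82 there, against -1.39 and -1.18 in the set of 16. In D- cells it was -0.52, against -1.06 and -0.92. On no treated array did the members' median shift reach that of the assembly genes, which was at most -0.21 on any of them.

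**Figure D2:**
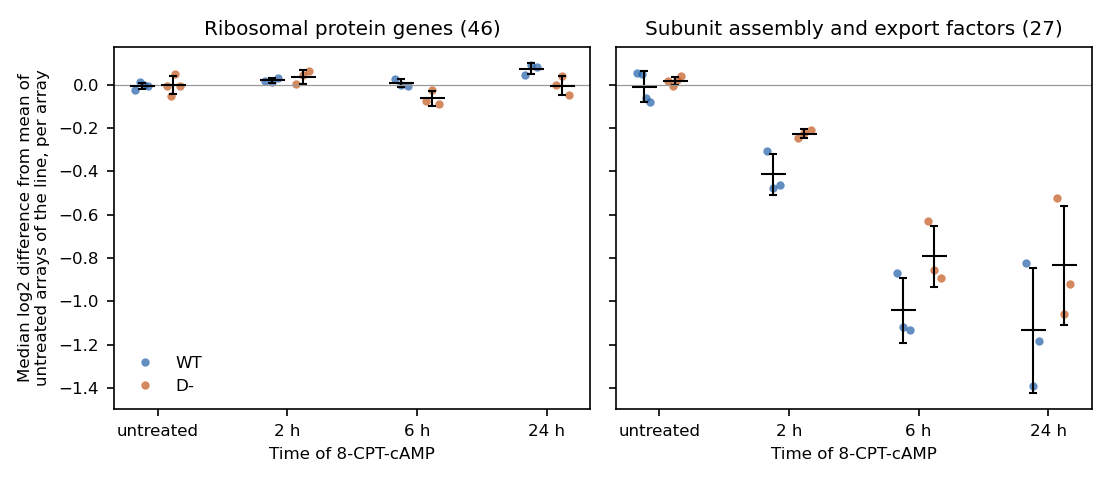
Median log2 difference from the mean of the untreated arrays of the line (vertical axis), for each array by time of 8-CPT-cAMP (horizontal axis), with 46 ribosomal protein genes on the left and 27 assembly and export genes on the right; blue points are WT arrays, orange points D- arrays, and black marks give the mean and SD of each group. The left panel stays between -0.09 and 0.09 throughout, and the right panel falls to -1.39.

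The proteins of the mitochondrial ribosome, which is a separate particle, were measured as well. Of 74 such genes, 15, 43 and 52 fell in WT cells at 2, 6 and 24 h and 7, 28 and 32 fell in D- cells, against the shares of all genes called lower just given. At 2 h the list's share of 20.3% in WT cells was not far above the 13.9% of all genes, and its 9.46% in D- cells was under their 13.2%. The medians were -0.28, -0.46 and -0.61 in WT cells and -0.19, -0.35 and -0.34 in D- cells. Genes outside the ribosome whose messages also begin with a TOP motif were mixed. Of 15 tested, 5 rose and 3 fell in WT cells at 24 h and 2 rose and 3 fell in D- cells, shares close to those of all genes (26.4% higher and 27.5% lower in WT, 17.1% and 17.6% in D- cells). In WT cells the elongation factor gene Eef2 rose by 0.46 ± 0.11 (SE, adjusted p = 0.00155), and Nap1l1, a histone chaperone gene, fell by 1.15 ± 0.09 (SE, adjusted p = 1.88e-09) on the log2 scale. Among 17 regulators of ribosomal protein synthesis, Myc fell at 2 h, with a log2 change of -2.49 ± 0.30 (SE, adjusted p = 2.07e-06) in WT cells and -3.16 ± 0.30 (SE, adjusted p = 6.96e-08) in D- cells. Eif4ebp1, which encodes an inhibitor of cap-dependent initiation that mTOR phosphorylates, fell at 24 h in both lines, with changes of -1.81 ± 0.30 (SE, adjusted p = 2.36e-05) and -1.73 ± 0.30 (SE, adjusted p = 0.000105). Over that list, 0 rose and 7 fell in WT cells at 24 h, and 0 rose and 5 fell in D- cells, against 27.5% and 17.6% of all genes called lower.

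The members that rose did so mainly at 24 h in WT cells, and by small amounts. Fau, which encodes the 40S protein eS30 fused to a ubiquitin-like domain, read 14.05, 14.17, 14.11 and 14.12 in untreated WT cells and 14.39, 14.61 and 14.46 after 24 h. All 3 treated arrays were above all 4 untreated ones, with a log2 change of 0.37 ± 0.08 (SE, limma adjusted p = 0.000333). The D- arrays read 14.14, 13.99, 14.23 and 14.10 untreated and 14.19, 14.26 and 14.07 after 24 h, and these arrays overlapped. The difference between the lines' responses was -0.32 ± 0.11 (SE), which did not pass (adjusted p = 0.0658), and it passed without WT 24 h replicate 1 (-0.36, adjusted p = 0.0301), without D- untreated replicate 2 (-0.36, adjusted p = 0.0419) and without D- 24 h replicate 2 (-0.36, adjusted p = 0.0494). It also passed with array set as a block (adjusted p = 0.0374), with the trend and robust settings of eBayes (adjusted p = 0.0216) and with no filter (adjusted p = 0.0357). Within the 2 array sets the WT change was 0.28 (set of 10, with 1 treated array) and 0.42 (set of 16, with 2 treated arrays).

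Rps6, the 40S protein that the S6 kinases phosphorylate, rose in 5 of the 6 responses. Its probe set read 8.62, 8.36, 8.55 and 8.64 in untreated WT cells, 8.93, 8.999 and 9.13 at 2 h, 8.81, 9.11 and 9.04 at 6 h and 9.18, 9.32 and 9.33 at 24 h. Every treated WT array was above every untreated one, with changes of 0.48, 0.44 and 0.73 ± 0.12 (SE, adjusted p = 0.00553, 0.00662 and 2.88e-05). In D- cells it read 8.29, 8.66, 8.64 and 8.52 untreated, 9.03, 9.06 and 8.89 at 2 h, 8.37, 8.65 and 8.43 at 6 h and 8.73, 8.71 and 9.20 at 24 h. The 2 h and 24 h changes passed (0.46, adjusted p = 0.00806, and 0.35, adjusted p = 0.0307), and the 6 h arrays overlapped the untreated ones. The 24 h call in D- cells rested on single arrays: it was lost without D- 24 h replicate 3 (0.19, adjusted p = 0.271), without D- untreated replicate 1 (0.27, adjusted p = 0.109) and without D- untreated replicate 4 (0.35, adjusted p = 0.0557). Within the sets of 10 and 16 arrays the 24 h changes were 0.69 and 0.73 in WT cells and 0.26 and 0.37 in D- cells. At a mean log2 intensity of 8.82 this probe set is much dimmer than those of most members.

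Rps9, a 40S protein that helps keep decoding accurate, read 13.54, 13.56, 13.27 and 13.20 in untreated WT cells and 13.71, 13.76 and 13.85 after 24 h. The groups did not overlap, and the change was 0.38 ± 0.11 (SE, adjusted p = 0.0047), or 0.16 and 0.58 within the sets of 10 and 16 arrays. The change in D- cells was 0.29 ± 0.11 (SE, adjusted p = 0.0422), again without overlap. That D- call was lost when any 1 of 5 of the 7 D- arrays was left out, with changes of 0.23 to 0.33. It was also lost with quantile normalisation (0.26, adjusted p = 0.104), median centring (0.27, adjusted p = 0.118) and only the groups compared in the fit (adjusted p = 0.0754). The other bright Rps9 probe set gave 0.34 (adjusted p = 0.0292) in WT cells and -0.02 (adjusted p = 0.926) in D- cells at 24 h, and a dim one went the other way in both lines, as described further on. Rps14, Rpl10a and Rpl19 rose in WT cells at 24 h by 0.25, 0.21 and 0.18 (adjusted p = 0.0317, 0.0343 and 0.0284), with all treated arrays above all untreated ones. These 3 calls were lost with quantile normalisation or median centring of the arrays, with adjusted p from 0.0583 to 0.226, and when single arrays were left out (4 of 7 for Rps14, 5 of 7 for Rpl10a and 4 of 7 for Rpl19), with changes from 0.14 to 0.24. Within the sets of 10 and 16 arrays the changes were 0.09 and 0.32 for Rps14, 0.14 and 0.23 for Rpl10a and 0.08 and 0.24 for Rpl19. With the trend and robust settings of eBayes, Rps15, Rps20, Rps24 and Rps4x also passed as higher in WT cells at 24 h. Their changes were 0.15, 0.11, 0.15 and 0.15 (limma adjusted p = 0.0334, 0.0367, 0.0104 and 0.0338), and none of them passed in the main fit.

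The members that fell were mostly dim or were not core ribosomal proteins. Rpl7l1, a paralog of Rpl7 that takes part in assembly of the large subunit, was the only member whose brightest probe set passed in all 6 responses. It read 10.55, 10.54, 10.66 and 10.63 in untreated WT cells, 10.15, 10.17 and 9.98 at 2 h, 10.19, 10.06 and 9.72 at 6 h and 10.24, 9.79 and 9.96 at 24 h. Every treated array lay below every untreated one, and the changes were -0.49, -0.61 and -0.60 ± 0.12 (SE, adjusted p = 0.00294, 0.000305 and 0.000155). In D- cells it read 10.77, 10.73, 10.56 and 10.83 untreated and 10.33, 10.18 and 10.34 at 24 h, and the changes were -0.45, -0.49 and -0.44 ± 0.12 (SE, adjusted p = 0.00635, 0.00248 and 0.00504). The 2 h call in D- cells was lost without D- 2 h replicate 2 (-0.37, adjusted p = 0.0522). The dimmer Rpl7l1 probe set was called lower in the 5 other responses and gave -0.08 (adjusted p = 0.709) in D- cells at 2 h. Within the sets of 10 and 16 arrays the brightest gave -0.39 and -0.57, -0.35 and -0.76, and -0.31 and -0.77 at 2, 6 and 24 h in WT cells, and -0.42 and -0.44 at 24 h in D- cells. Rpl7 itself did not pass in any response.

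Rps27l, a paralog of Rps27 and a known p53 target, read 13.09, 13.14, 13.09 and 13.11 in untreated WT cells, 12.84, 12.73 and 12.88 at 6 h and 12.83, 12.62 and 12.74 at 24 h. Both times lay wholly below the untreated arrays, with changes of -0.29 and -0.38 ± 0.08 (SE, adjusted p = 0.00917 and 7e-04). The 6 h call was lost without WT 6 h replicate 2 (-0.25, adjusted p = 0.0584). In D- cells it read 13.08, 12.98, 13.08 and 13.01 untreated and 12.84, 12.58 and 12.58 at 24 h, a change of -0.37 ± 0.08 (SE, adjusted p = 0.00166). The 24 h changes within the sets of 10 and 16 arrays were -0.28 and -0.42 in WT cells and -0.18 and -0.47 in D- cells. Rps27 passed at 6 h in D- cells only among the 6 responses, at -0.42 ± 0.15 (SE, adjusted p = 0.0354), and that call was lost when any 1 of 4 D- arrays was left out, among them D- 6 h replicate 3 (-0.26, adjusted p = 0.252). Rpl22l1, the paralog of the T cell development factor Rpl22, did not pass: its changes were 0.18, 0.22 and 0.10 in WT cells and 0.17, 0.18 and -0.15 in D- cells, within a spread of 12.79 to 13.26 among untreated WT arrays.

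Rps25, a 40S protein used by viral internal ribosome entry sites, read 10.05, 10.22, 10.27 and 10.20 in untreated WT cells, 9.59, 9.66 and 9.48 at 6 h and 9.50, 9.01 and 9.39 at 24 h. In D- cells it read 10.26, 10.47, 10.60 and 10.53 untreated, 9.89, 9.94 and 9.89 at 6 h and 9.73, 9.45 and 9.38 at 24 h. The groups did not overlap in either line. The changes at 6 and 24 h were -0.61 and -0.89 ± 0.12 (SE, adjusted p = 0.00056 and 3.4e-06) in WT cells and -0.55 and -0.94 ± 0.12 (SE, adjusted p = 0.00163 and 4.69e-06) in D- cells. At 24 h they were -0.64 and -1.04 in WT cells and -0.63 and -1.15 in D- cells within the sets of 10 and 16 arrays.

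Rpl12, which sits at the base of the stalk, had the largest falls among the members in WT cells and a dim probe set (mean log2 intensity 6.52). It read 7.20, 7.59, 7.27 and 7.57 in untreated WT cells, 6.52, 6.29 and 5.68 at 2 h, 6.30, 4.99 and 4.96 at 6 h and 7.14, 5.06 and 5.33 at 24 h. The treated arrays were all lower, with changes of -1.24, -1.99 and -1.56 ± 0.36 (SE, adjusted p = 0.0141, 0.000192 and 0.000957), and some of them were near the low limit of log2 5. At 24 h the change was -0.25 within the set of 10 arrays, where it rests on the 1 treated array at 7.14. Within the set of 16 it was -2.23. In D- cells 6 h passed (-1.26 ± 0.36, SE, adjusted p = 0.0113), and 2 and 24 h did not (-0.95 and -0.92), though all treated D- arrays lay below all untreated ones. These 2 changes passed with array set as a block (-0.87, adjusted p = 0.0431, and -0.84, adjusted p = 0.0375), within the set of 16 arrays (-0.91, adjusted p = 0.00511, and -0.92, adjusted p = 0.00231) and with only the groups compared in the fit (adjusted p = 0.00264 and 0.00253). The 2 h call in WT cells was lost without WT 2 h replicate 3 (-1.001, adjusted p = 0.0988), and the 6 h call in D- cells without D- 6 h replicate 2 (-1.14, adjusted p = 0.0545). Rpl14, also a 60S protein, fell at 6 h by 0.71 in WT cells and 0.74 in D- cells (adjusted p = 0.0135 and 0.0128) and at 24 h by 0.60 in D- cells (adjusted p = 0.0376). In untreated WT cells it ranged from 8.98 to 9.77, overlapping the 6 h arrays at 8.49 to 9.22, and each of its 3 calls was lost when single arrays were left out, with changes from -0.45 to -0.70.

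**Figure D3:**
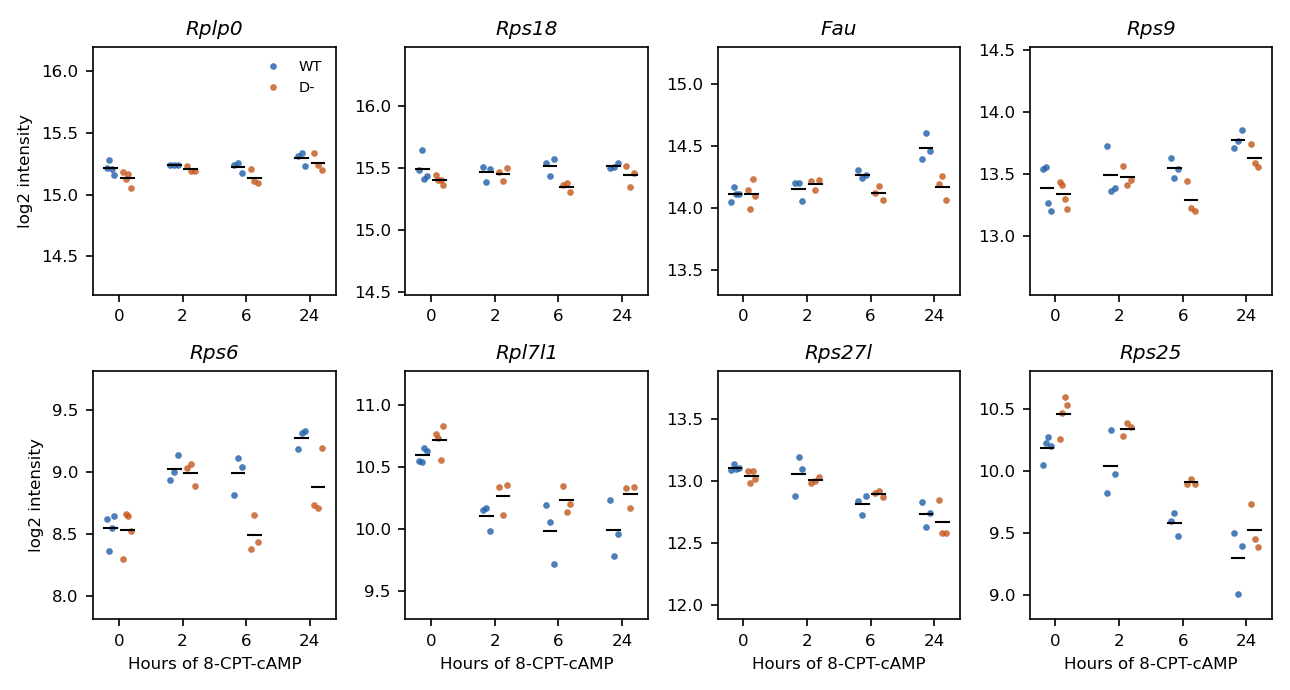
Log2 intensity (vertical axis, 2 log2 units tall in every panel) against hours of 8-CPT-cAMP (horizontal axis) for 8 member genes, with each array as a point, WT in blue, D- in orange, and the group mean as a black line. Rplp0 and Rps18 stay level, Fau and Rps9 rise slightly at 24 h in WT cells, Rps6 rises from 8.54 to 9.27 in WT cells, and Rpl7l1, Rps27l and Rps25 fall in both lines.

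No member, read by its brightest probe set, passed a test of a difference between the 2 lines. In untreated cells 0 of 46 members passed (limma; 1 had an unadjusted p under 0.05), against 5% of all genes, and the log2 differences ran from -0.12 to 0.28. For the difference between the lines' responses, 0 of 46 passed at 2, 6 and 24 h (limma; 0, 1 and 3 had an unadjusted p under 0.05), against 0.242%, 0.592% and 12.3% of all genes. The 24 h interval of this difference lay within 0.5 of 0 for 35 of 46 members. Its median over the members was -0.09, and -0.03 and -0.16 within the sets of 10 and 16 arrays. The count of 0 at 24 h became 1 without D- untreated replicate 2 or D- 24 h replicate 2 (Fau each time), 1 without D- 24 h replicate 3 (Rps6, -0.54, adjusted p = 0.0339) and 2 without WT 24 h replicate 1 (Fau, and Rpl12 at 1.29, adjusted p = 0.0234). A second, dimmer Rpl7l1 probe set did pass at 24 h: it fell by 0.87 in WT cells and 0.30 in D- cells, a difference of 0.57 ± 0.16 (SE, adjusted p = 0.0218).

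The counts in D- cells also depended on single arrays. The 5 members at 6 h became 3 without D- untreated replicate 2, 2 without D- 6 h replicate 2 and 3 without D- 6 h replicate 3. The 2 at 2 h became 1 without D- 2 h replicate 2, and the 6 at 24 h became 3 without D- 24 h replicate 3. Within the set of 16 arrays, 3, 7 and 9 members passed at 2, 6 and 24 h in WT cells and 2, 4 and 6 in D- cells. The share of all genes that passed in that fit is not given here, so these counts have no background beside them. For the set of 10 arrays, which leaves 1 array per treated group and 2 residual degrees of freedom, no count is given.

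**Figure D4:**
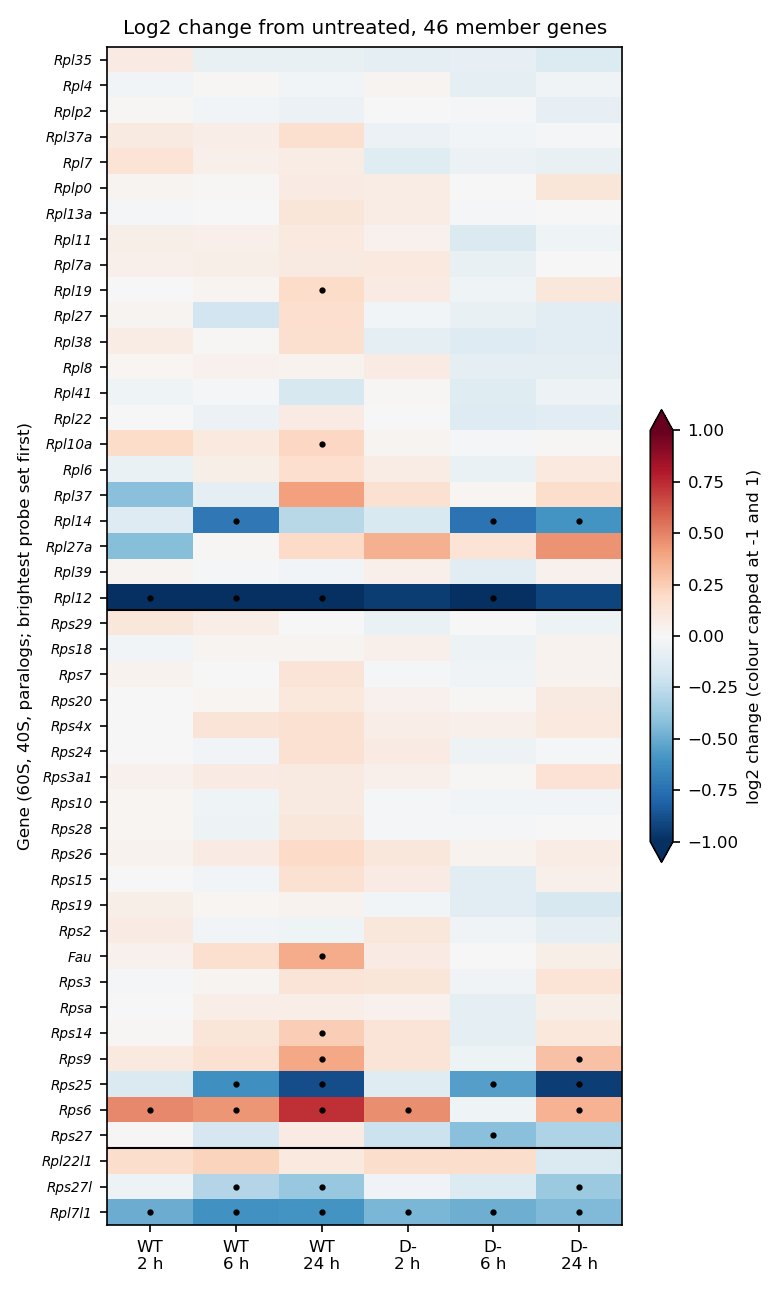
Log2 change from untreated cells (colour, blue lower and red higher, capped at -1 and 1) for 46 member genes (rows; 60S, 40S and paralog blocks, brightest first within each) in the 6 responses (columns). Black dots mark an adjusted p under 0.05: most rows are pale, and the dots fall mainly on the dimmest rows of each block and on WT 24 h.

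How flat a gene looked depended on which of its probe sets was read. Of the 46 genes, 9 had both a probe set with a mean log2 intensity of 10 or more and one below 10, a split made after the values had been seen. Of their 22 bright probe sets, 1 was called lower in each of the 6 responses, that of Rpl7l1, and 0, 0 and 3 were called higher in WT cells and 0, 0 and 1 in D- cells. Of their 12 dim probe sets, 6, 10 and 6 were called lower in WT cells at 2, 6 and 24 h and 4, 9 and 7 in D- cells, with medians of -0.41, -0.77 and -0.41 and of -0.64, -0.88 and -0.64. The background among all 9738 tested probe sets with a mean under 10 was 14.4%, 16.9% and 24.1% called lower in WT cells and 14.1%, 14.2% and 15.6% in D- cells. Over all 19 dim member probe sets, single ones included, 7, 13 and 8 were called lower in WT cells and 4, 13 and 9 in D- cells.

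For Rps9 a dim and a bright probe set were called in opposite directions at 24 h in both lines. Its dim probe set 1426958_at read 7.26, 7.73, 7.47 and 7.20 in untreated WT cells and 7.08, 4.97 and 5.71 after 24 h, a change of -1.50 ± 0.41 (SE, adjusted p = 0.00357), while the bright one rose by 0.38. In D- cells the same pair gave -1.35 ± 0.41 (SE, adjusted p = 0.0128) and 0.29. For Rpl41, the smallest protein of the 60S subunit, the dim probe set 1433530_at read 7.42, 7.53, 7.05 and 7.50 untreated and 6.58, 5.69 and 5.61 at 6 h in WT cells, a change of -1.42 ± 0.24 (SE, adjusted p = 8.45e-05), and the brightest gave -0.01. For Rps24, a 40S protein mutated in some Diamond-Blackfan anaemia, the dim probe set 1455195_at gave -1.43 ± 0.27 (SE, adjusted p = 0.00032) at 6 h in WT cells, and the brightest gave -0.03. Rps10 also had probe sets called both ways. Its dim probe set 1436384_at (mean log2 intensity 5.66) was called lower in every response, with -0.47 ± 0.11 (SE, adjusted p = 0.00093) in WT cells at 24 h. There the bright 1416719_a_at rose by 0.23 (adjusted p = 0.0116), and the brightest gave 0.09 (adjusted p = 0.439).

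Rpl22, a 60S protein needed for the development of αβ T cells, had a dim probe set that moved both ways. Probe set 1448398_s_at read 8.16, 7.85, 8.42 and 8.35 in untreated WT cells, 7.07, 7.73 and 7.68 at 2 h, 7.21, 7.43 and 7.44 at 6 h and 8.95, 9.08 and 8.97 at 24 h. All arrays at 2 and 6 h were below the untreated ones and all at 24 h above them, with changes of -0.70, -0.84 and 0.80 ± 0.15 (SE, adjusted p = 0.0014, 0.000182 and 0.000121). D- cells showed changes of -1.21, -0.89 and 0.25, and the last did not pass. The bright Rpl22 probe set read 14.20, 14.23, 14.10 and 14.25 in untreated WT cells and 14.22, 14.28 and 14.33 at 24 h, and did not pass at any time in either line. Differences between probe sets of a gene were not themselves tested, and which part of each transcript a probe set reads was not analysed here. By the array maker's naming, probe sets ending in _x_at or _s_at hold probes that can match further transcripts; these stood for 15 of the 46 genes.

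**Figure D5:**
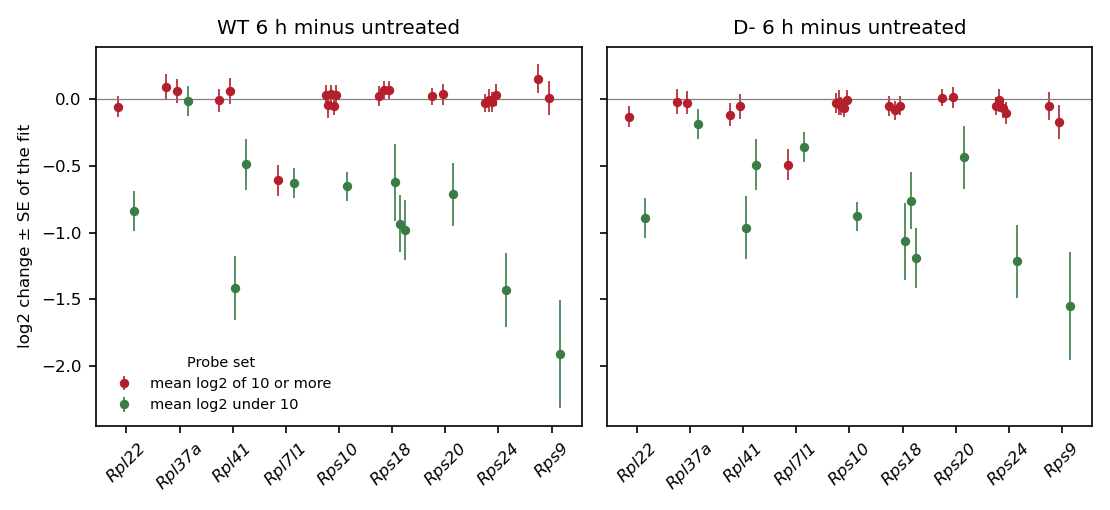
Log2 change at 6 h with the SE of the fit (vertical axis) for each tested probe set of the 9 genes that have both bright and dim ones (horizontal axis), in WT (left) and D- cells (right); red points have a mean log2 intensity of 10 or more and green points less. Red points other than that of Rpl7l1 lie near 0 and most green points lie below; the dim Rps18 and Rps20 probe sets are near the low limit of log2 5.

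A further 96 tested probe sets carry a member symbol together with other symbols and could not be given to 1 gene. Among the 81 of them with a mean log2 intensity of 10 or more, 1, 2 and 16 passed in WT cells and 1, 3 and 8 in D- cells. The background over all 12724 tested probe sets was 24.6%, 36.2% and 52.6% in WT cells and 21.7%, 30.4% and 33.4% in D- cells. It was not matched in brightness to the 81, since 9738 of the 12724 have a mean under 10. Of the 16 at 24 h in WT cells, 15 were higher and 1 lower, against 24.6% and 28% of all tested probe sets, and the median of the 81 was 0.09. Among the 15 dim ones, 3, 6 and 3 were called lower in WT cells and 4, 7 and 5 in D- cells. Of all tested probe sets with a mean under 10, 14.4%, 16.9% and 24.1% were called lower in WT cells. In D- cells these shares were 14.1%, 14.2% and 15.6%.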

How the data were processed

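RNA of 26 samples was read on Affymetrix arrays. The authors deposited GCRMA intensity values on a linear scale, per the submitters' processing notes (version not given in the sources used here). Scanner files were not used here. Values were taken to log2, with no further normalisation (authors' intensities, lowest 2, highest 83530.7). Of 22690 probe sets, 64 were controls, 20380 had 1 symbol in the platform annotation, 691 several and 1555 none. The 12724 probe sets at log2 5 or above (intensity 32) on at least 3 arrays were tested. limma 3.58.1 in R 4.3.3 fitted 8 group means, with lmFit and eBayes, and 10 comparisons, with Benjamini-Hochberg adjustment over all tested probe sets and a threshold of 0.05. For a gene, the brightest tested probe set was used (7435 genes). The fit was tested on simulated data. Fold changes of dim probe sets depend on the background correction of GCRMA.

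Members, gene lists and tests were chosen with earlier results of these data known. Named were the 4 highest and 4 lowest called members per comparison, stalk and disease genes, paralog pairs and members with opposing probe sets, and up to 4 genes of each other list by largest called change. Same-numbered replicates did not pair by the rule used: 15 of 22 pairs correlated above 0.1 in their deviations from the group means (-0.47 to 0.60). No 2 arrays were duplicates. Alternatives covered normalisation, filter, probe set choice, array sets, the replicate block and each array left out. Start windows and promoters came from RefSeq; figures were drawn with matplotlib.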

Additional observations from a re-analysis of the deposited data

Results flagged for a closer look

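In 4 of 92 groups of 4 untreated arrays, 1 array stood apart from the other 3 in a member gene; chance gives about 5% of such groups. Rpl39 read 8.22 in WT untreated replicate 2, against 7.97 to 7.99 on the others, and 8.12 in D- untreated replicate 3, against 7.92 to 7.96. Rpl13a read 15.30 in D- untreated replicate 3, against 15.15 to 15.16. Rplp2 read 15.32 in D- untreated replicate 2, against 15.48 to 15.50. The dimmer Rpl7l1 probe set (1426386_at) changed differently in the 2 lines at 24 h, by 0.57 on the log2 scale (D- minus WT, limma adjusted p = 0.0218), having read 9.17, 8.66 and 8.69 in WT and 9.57, 9.48 and 9.47 in D- cells. The brighter Rpl7l1 probe set gave a difference of 0.16, which did not pass.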

How the results depend on the processing

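Of 260 alternative values for the counts and medians, leaving out single arrays apart, 37 moved. Quantile normalisation gave member medians of -0.0177, -0.00803 and 0.0122 in WT cells at 2, 6 and 24 h, 0.00578 in D- cells at 2 h and -0.0281 for the line difference at 6 h. Median centring gave -0.0355 and 0.0651 in WT cells at 6 and 24 h, 0.0964 and -0.0930 in D- cells at 2 and 6 h and 0.0839 for the line difference at 2 h. With a gene's probe sets averaged, 11 members passed in WT cells at 6 h, 4 in D- cells at 2 h and 11 at 6 h, and the median line difference at 2 h was -5.71e-06. Without probe sets ending in _s_at or _x_at (41 member genes left), 10 passed in WT and 9 in D- cells at 6 h. Within the set of 10 arrays the medians were 0.0671 (WT 24 h) and -0.0305 (line difference at 24 h). The counts of the 6 responses moved there too and are not given, since each treated group has 1 array. Within the set of 16 the medians were 0.0411 (WT 2 h) and -0.00564, -0.107 and -0.158 (line difference at 2, 6 and 24 h). Members with a mean log2 intensity of 10 or more, an alternative chosen after seeing the data, gave 1 and 2 in WT cells at 2 and 6 h and 1, 1 and 3 in D- cells at 2, 6 and 24 h. For the line difference at 24 h, the trend and robust settings of eBayes, no filter, and array set as a block each gave 1 member (Fau), and the set of 16 arrays alone gave 1 (Rpl12). Rps9 reversed at 24 h with its probe sets averaged (-0.26 in WT, -0.36 in D-) and without _s_at and _x_at sets (-1.50 and -1.35), which replace its brightest probe set by the dim one. With single arrays left out, the counts ran from 2 to 3, 4 to 7 and 7 to 12 in WT cells, 1 to 2, 2 to 5 and 3 to 5 in D- cells, and 0 to 2 for the line difference at 24 h; the medians ran from 0.00177 to 0.0295 for WT 6 h and from -0.106 to -0.0528 for the line difference at 24 h. The replicate block, with numbers that did not pair the samples, moved no count by over 1.5 times, and Rps26 and Rps4x (WT 24 h, 0.22 and 0.17) and Rps19 and Rps27 (D- 24 h, -0.21 and -0.37) passed with it. Of 621 alternatives for the 32 calls of single members, 90 no longer passed and 4 reversed. The number of arrays limits the precision of all these values.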
